A study of Mus musculus with 15 samples.

Results

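Receptor genes through which the hypothalamus reads signals of energy state were followed across 5 groups of mice, and they numbered 10: Lepr, Insr, Ghsr, Calcr, Cckar, Mc3r, Mc4r, Npy1r, Npy2r and Npy5r. They were taken by name from a table of 24831 gene names, and 10 of 10 were found, as 21 transcripts. The mice were of the outbred CD-1 stock, and total RNA of the hypothalamus was sequenced at postnatal day 15. The title of the study places the animals in the F2 generation of a study of thyroid hormone. The 15 samples formed the groups Control, PGM, PGF, HF and HM, each with 3. All 5 groups shared strain, age and tissue, and no treatment or genotype beyond the group name was found in the sources used here. The deposited values were the authors' mean RPKM (reads scaled to transcript length and to the mapped reads of a library) of each group. The spread within a group and the sequencing depth are therefore unknown, no difference has a replicate check, and every value below is a description of 5 group means.

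The hypothalamus matches food intake and energy use to the body's stores through hormones from the periphery and peptides made by its own neurons. Leptin from fat, insulin from the pancreas, and amylin and cholecystokinin released around meals restrain feeding, whereas ghrelin from the stomach promotes it. In the arcuate nucleus, neurons that make proopiomelanocortin and neurons that make agouti-related peptide and neuropeptide Y act on melanocortin and Y receptors of downstream cells, in opposite directions.

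The promoters of the 3 receptors that were at least 1.5-fold lower in PGM than in Control, Lepr, Ghsr and Calcr, are shown because these genes carried the largest differences in that comparison. Cckar, which was that much lower in PGF, had no matched promoter. Each run covers 240 bases and ends 11 bases before the RefSeq transcription start (build GRCm38.p6), read 5′ to 3′ on the strand of the gene. Capitals mark AGGTCA, the half-site bound by thyroid hormone receptors and by other nuclear receptors, searched on both strands.
Lepr, chr4:101717157-101717396, plus strand: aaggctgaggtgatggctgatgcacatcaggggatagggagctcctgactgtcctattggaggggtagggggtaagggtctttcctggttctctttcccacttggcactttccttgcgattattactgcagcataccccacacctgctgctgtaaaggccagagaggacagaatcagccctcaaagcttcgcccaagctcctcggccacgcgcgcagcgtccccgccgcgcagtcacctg
Ghsr, chr3:27371101-27371340, plus strand: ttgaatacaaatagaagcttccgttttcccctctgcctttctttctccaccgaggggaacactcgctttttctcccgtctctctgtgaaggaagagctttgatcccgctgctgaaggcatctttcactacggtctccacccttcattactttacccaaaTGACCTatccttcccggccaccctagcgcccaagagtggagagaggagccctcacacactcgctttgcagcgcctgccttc
Calcr, chr6:3764724-3764963, minus strand: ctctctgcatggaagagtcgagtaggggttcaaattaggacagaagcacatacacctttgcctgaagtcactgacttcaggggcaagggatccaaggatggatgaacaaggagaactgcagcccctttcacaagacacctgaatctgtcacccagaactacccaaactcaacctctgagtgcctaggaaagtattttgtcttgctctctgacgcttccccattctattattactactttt
RefSeq promoters of 300 bases were matched for 7 of the 10 receptors (Lepr, Ghsr, Calcr, Mc3r, Npy1r, Npy2r and Npy5r). The half-site was found in 1 of these 7, Ghsr, where it lies on the minus strand 91 to 86 bases before the start. Of all 32851 promoters of the same length 16.3% hold these letters. The match in Ghsr is thus only a description of its sequence, and binding there was not tested.

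All 10 receptors had their 2 lowest values in PGM and PGF. A gene was kept for comparison when its mean over the groups was at least 1 RPKM, which 17481 genes and 10 of 10 receptors met, and PGM and PGF both lay below the other 3 groups in 21.9% of the kept genes. Differences were taken on the scale log2(mean RPKM + 0.5), first group minus second, a scale that understates the differences of genes with low values. Against Control, the median difference of the 10 receptors was -0.34 in PGM, -0.40 in PGF, -0.004 in HF and -0.06 in HM, against medians over all kept genes of 0.005 in PGM, -0.03 in PGF, 0.02 in HF and -0.03 in HM. Control and HF were close, with levels within 10% of each other for 9 receptors, Lepr being the exception. In PGM, 3 of 10 receptors (Lepr, Ghsr and Calcr) were at least 1.5-fold lower than Control, where 2.28% of kept genes were. In PGF, 2 of 10 (Calcr and Cckar) were, where 1.88% of kept genes were. Ghsr in PGF fell short on this scale, at -0.52. Its RPKM without the added 0.5 was 65.9% of Control, which is past 1.5-fold. Among kept genes with means of 2 to 8 RPKM, the range that holds Lepr, Ghsr and Cckar, 3.98% were that much lower in PGM and 3.13% in PGF. No receptor reached 1.5-fold lower in HM (0.864% of kept genes) or in HF (0.172%), and none was 1.5-fold higher than Control in any group, where 0.658% of kept genes were in HF, 0.675% in HM, 2.16% in PGF and 2.34% in PGM. With a pseudocount of 1 in place of 0.5, 0 receptors in PGM and 1 in PGF, Calcr, were past 1.5-fold. The share of kept genes at that pseudocount is not given here.

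**Figure D1:**
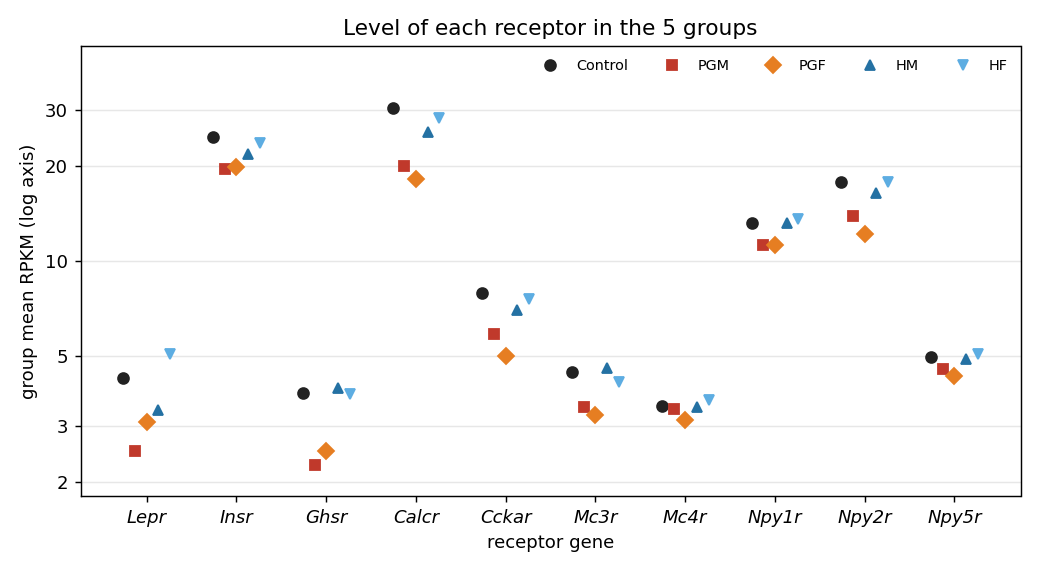
Mean RPKM of each receptor gene (x axis) in the 5 groups (one symbol per group, log y axis), taken as the median over the transcripts listed for a gene; a symbol is 1 group mean and has no error bar. The PGM and PGF symbols are the lowest 2 for each of the 10 genes, and the groups nearly coincide for Mc4r.

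Lepr encodes the leptin receptor, a cytokine receptor that signals through JAK2 and STAT3 in neurons and is also expressed by choroid plexus and vessels. The gene lies on chromosome 4 (101717404 to 101815352, plus strand, GRCm38, gene ENSMUSG00000057722.17), and its annotated coding transcripts have between 2 and 18 coding exons. Its median transcript was at 4.26 RPKM in Control, 2.51 in PGM, 3.10 in PGF, 5.06 in HF and 3.37 in HM. Its highest value was thus in HF and its lowest in PGM, a 2.02-fold range that was the widest among the 10 receptors. It differed from Control by -0.66 in PGM, -0.40 in PGF, 0.22 in HF and -0.30 in HM. Lepr was the receptor that most separated HM from HF, at -0.52, and 1.78% of kept genes had a lower difference in that comparison.

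The table lists 5 Lepr transcripts, and which of them encode the long signalling form was not given in the sources used here. All 5 followed the same order of groups. The transcript with the highest mean over the groups, uc008tvy.2, was at 5.47 RPKM in Control, 3.73 in PGM, 4.21 in PGF, 6.16 in HF and 4.5 in HM. Its difference in PGM, -0.50, was the smallest of the 5, and uc008twa.1 had the largest, -0.74. Of the 5 transcripts 4 were at least 1.5-fold lower in PGM, so the count for Lepr is lost when its highest transcript stands for the gene. Isoforms share exons, and how reads were divided among them was not given in the sources used here.

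Insr encodes the insulin receptor, a tyrosine kinase of nearly all cells (chromosome 8, 3122061 to 3279617, minus strand). It was at 24.7 RPKM in Control, 19.5 in PGM, 19.9 in PGF, 23.7 in HF and 21.8 in HM. PGM and PGF were at 79.1% and 80.6% of Control, a difference of -0.33 in PGM and -0.30 in PGF, with HM between them and the HF level. Its 4 transcripts differed by -0.37 to -0.26 in PGM and by -0.36 to -0.19 in PGF. An antisense gene and a pseudogene on the other strand overlap Insr, and reads of the strands may not have been separated.

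**Figure D2:**
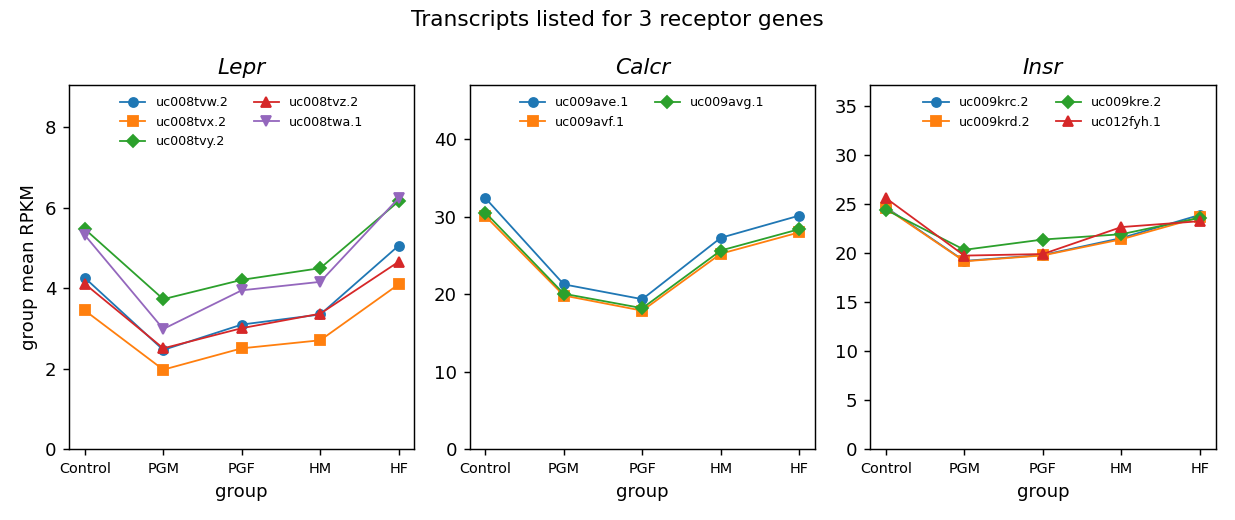
Mean RPKM (y axis, from 0) of every transcript listed for Lepr (5), Calcr (3) and Insr (4) in each group (x axis); lines only join the values of 1 transcript, since the groups have no order. The Lepr transcripts keep 1 order of groups with HF highest and PGM lowest, and the Calcr transcripts nearly coincide, between 17.9 and 19.4 RPKM in PGF.

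Ghsr encodes the ghrelin receptor, through which the stomach hormone acts on arcuate neurons that promote feeding and on the release of growth hormone (chromosome 3, 27371351 to 27378010, plus strand). It was at 3.81 RPKM in Control, 2.26 in PGM, 2.51 in PGF, 3.79 in HF and 3.97 in HM. The groups thus fell into a low pair, PGM and PGF, and a high trio whose values spanned 3.79 to 3.97. It differed from Control by -0.64 in PGM, -0.52 in PGF, -0.01 in HF and 0.05 in HM. Set against HM instead, PGM differed by -0.70, and 0.315% of kept genes had a lower value in that comparison.

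Calcr encodes the calcitonin receptor, which forms amylin receptors with proteins of the Ramp family (chromosome 6, 3685680 to 3764714, minus strand). It had the highest Control level of the 10 receptors, 30.5 RPKM, and was at 20.1 in PGM, 18.2 in PGF, 28.4 in HF and 25.6 in HM. PGM was at 65.7% and PGF at 59.6% of Control, differences of -0.59 and -0.73, and 0.629% of kept genes had a lower difference in PGF. Here Control was the highest group, and HM lay between PGM and HF with a difference of -0.25. The 3 listed transcripts differed by -0.60 to -0.59 in PGM and by -0.73 in PGF, so they do not separate.

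Cckar encodes the receptor for cholecystokinin that prefers the sulfated peptide and mediates satiety (chromosome 5, 53697776 to 53707705, minus strand). Its 1 transcript was at 7.91 RPKM in Control, 5.87 in PGM, 4.99 in PGF, 7.59 in HF and 6.98 in HM. The order of groups was the same as for Calcr, with PGF lowest at 63.1% of Control. It differed from Control by -0.40 in PGM, -0.62 in PGF, -0.06 in HF and -0.17 in HM.

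Mc3r and Mc4r encode the melanocortin receptors of the brain, on which melanocortins from proopiomelanocortin are agonists and agouti-related peptide is an antagonist. Each has a single coding exon. Mc3r (chromosome 2, 172248492 to 172251114, plus strand), which is expressed in arcuate neurons among others, was at 4.44 RPKM in Control, 3.46 in PGM, 3.26 in PGF, 4.15 in HF and 4.58 in HM. PGM and PGF lay below the other 3 groups, with differences of -0.32 and -0.39. Mc4r (chromosome 18, 66857704 to 66860506, minus strand), the receptor of paraventricular neurons that restrains feeding, was at 3.48 RPKM in Control, 3.39 in PGM, 3.13 in PGF, 3.64 in HF and 3.44 in HM. Mc4r showed the narrowest range of the 10 receptors, 1.16-fold from lowest to highest group, and in PGM it was at 97.4% of Control. It differed from Control by -0.03 in PGM, -0.13 in PGF, 0.06 in HF and -0.01 in HM. Whether Mc3r and Mc4r differ from each other in these groups could not be tested on group means.

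Npy1r, Npy2r and Npy5r encode receptors for neuropeptide Y and peptide YY. Npy1r and Npy5r act in downstream neurons to promote feeding, and Npy2r is largely an inhibitory receptor on the neuropeptide Y neurons themselves. Npy2r (chromosome 3, 82538383 to 82548084, minus strand) was at 17.8 RPKM in Control, 13.9 in PGM, 12.2 in PGF, 17.8 in HF and 16.5 in HM. It had the largest difference of the 3, -0.35 in PGM and -0.53 in PGF. Npy1r (chromosome 8, 66697192 to 66706792, plus strand) was at 13.2 RPKM in Control, 11.25 in PGM, 11.3 in PGF, 13.6 in HF and 13.2 in HM. PGM and PGF were nearly equal, at 85.3% and 85.5% of Control, and the other 3 groups lay close together above them.

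Npy5r (chromosome 8, 66679965 to 66688128, minus strand) lies next to Npy1r, 9063 bases away and on the opposite strand. It was at 4.98 RPKM in Control, 4.54 in PGM, 4.31 in PGF, 5.07 in HF and 4.91 in HM. Its differences from Control were -0.12 in PGM and -0.19 in PGF, against -0.22 in both for Npy1r. Over the 4 differences from Control, the root mean square distance between Npy1r and Npy5r was 0.054 log2 units, and the receptor nearest to Npy5r was Mc4r, at 0.053. Cckar and Npy2r lay 0.062 apart, and the farthest apart were Calcr and Mc4r, at 0.43. These distances rest on 4 values per gene that share the Control mean.

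**Figure D3:**
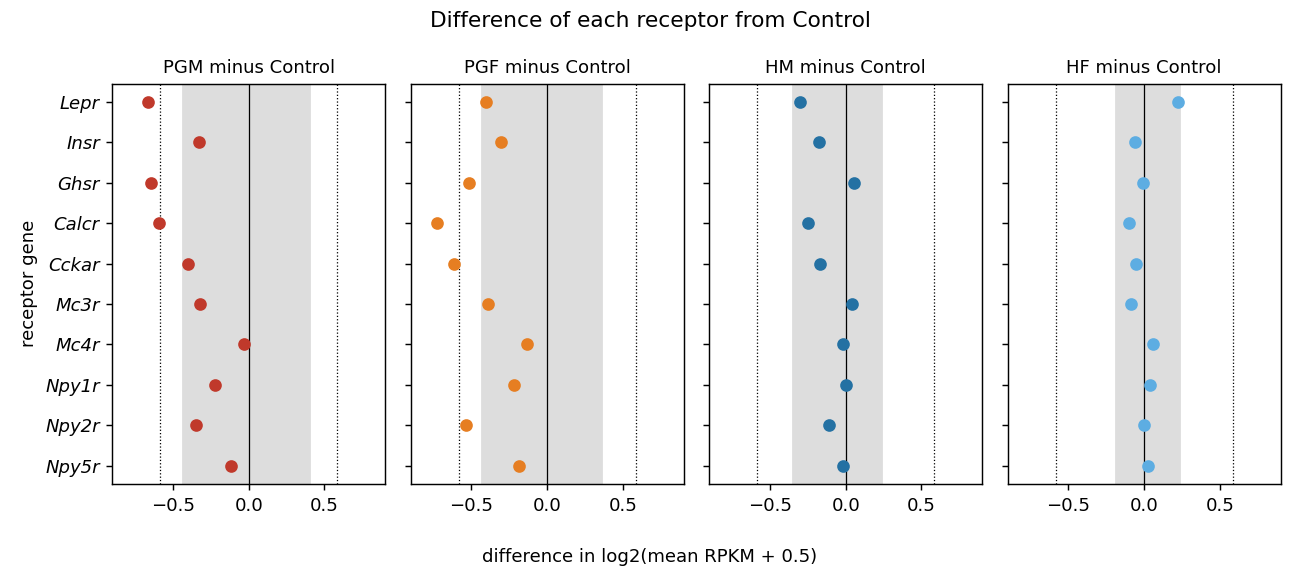
Difference of each receptor (rows) from Control in log2(mean RPKM + 0.5) (x axis) in PGM, PGF, HM and HF; grey marks the central 90% of the 17481 kept genes and dotted lines 1.5-fold. In PGM and PGF all 10 points lie left of 0, whereas in HF the points lie between -0.10 and 0.22.

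Comparisons that leave out Control gave the same side for PGM and PGF. PGM was below HM in 10 of 10 receptors with a median of -0.24, and PGF below HF in 10 of 10 with a median of -0.41. Both held at once in 31.5% of kept genes. Ghsr was at least 1.5-fold lower in PGM than in HM, 1 of 10 where 0.578% of kept genes were. Lepr and Calcr, both at -0.63, were at least 1.5-fold lower in PGF than in HF, 2 of 10 where 1.5% of kept genes were. Cckar and Ghsr fell short there, at -0.56 and -0.51, though their RPKM without the added 0.5 was past 1.5-fold. With each difference centred on the median of all kept genes, neither Lepr nor Calcr was past 1.5-fold in PGF against HF. PGM against PGF had 0 of 10 receptors past 1.5-fold lower (0.555% of kept genes) and a median of 0.07, with Lepr at -0.26 and Cckar at 0.21 as the extremes. HM against HF had 0 of 10 (1.31% of kept genes) and a median of -0.09.

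Markers of the tissue and of its neighbours differed between the same groups. Factors that pattern the hypothalamus were below Control in 20 of 22 kept genes in PGM, with a median of -0.33, and in 21 of 22 in PGF, with -0.58. Otp, a factor of neuroendocrine neurons, was at 8.45 RPKM in Control, 3.56 in PGM, 3.15 in PGF, 6.05 in HF and 5.07 in HM, and the defining hypothalamic gene Nkx2-1 at 19.2, 17.7, 15.8, 18.0 and 19.2. Taken relative to the median of this list, the receptors' median was -0.01 in PGM, with 5 receptors below the list and 5 above, and 0.18 in PGF, with 8 above. In bulk tissue, fewer cells of a type and less RNA per cell cannot be told apart.

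Markers of the thalamus, which adjoins the hypothalamus, lay above Control for 9 of 9 genes in PGM and for 9 of 9 in PGF. Their summed level was 179.8 RPKM in Control, 417.8 in PGM, 397.4 in PGF, 172.6 in HF and 248.8 in HM, so the groups with the lowest receptor levels had the highest thalamic levels. Prkcd, a kinase of thalamic relay neurons, was at 35.0 RPKM in Control, 154 in PGM, 156 in PGF, 38.2 in HF and 69.2 in HM. Cortical and striatal markers were higher in PGM in 8 of 13 kept genes and in PGF in 7 of 13, with summed levels between 121.9 RPKM in Control and 246.6 in PGM. Myelin genes were higher in 12 of 12 in both, and general neuronal markers had medians of 0.15 and 0.10. The summed pituitary level was 1656.7 RPKM in PGF against 73.0 in Control, 71.9 in PGM, 38.1 in HF and 89.5 in HM, and in HF its defining genes Prl and Pou1f1 were listed at 0. The summed choroid plexus level was 480.0 RPKM in PGF against 33.5 to 132.4 in the other groups. Most of the PGF sum was 1 gene, Ttr, at 440.5 RPKM in PGF, 106 in PGM and 7.01 in Control. The choroid plexus list had a median difference from Control of 0.53 in PGF, with 7 of 8 kept genes above Control. In PGM the median was 0.20, with 5 of 8 above. The part of these tissues in the receptor differences was not tested. The Y-linked gene Ddx3y was at 2.52 RPKM in Control, 30.4 in PGM, 32.0 in PGF, 15.9 in HF and 16.75 in HM. The X-linked gene Xist was at 44.0 RPKM in Control, 14.2 in PGM, 11.6 in PGF, 35.4 in HF and 26.4 in HM. Control thus differed from every other group in the level of Y-linked RNA. PGM and PGF also differed from HM and HF in both genes, so the comparisons without Control share this limit. The part of sex in these values was not tested.

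The receptors differed in which marker list they lay nearest to. Of the 13 marker lists, the meningeal list had the median profile nearest to Lepr, at a distance of 0.21 against 0.25 for the hypothalamic factors, while the other 9 receptors lay between 0.32 and 0.56 from it. This comparison was added after the values were seen. The meningeal markers had a median difference of -0.85 in PGM, -0.49 in PGF, 0.23 in HF and -0.67 in HM. Like Lepr, this median was lowest in PGM and highest in HF, though not every gene of the list was. Unlike Lepr, at -0.40 in PGF and -0.30 in HM, the median was lower in HM than in PGF. Between HM and HF, where Lepr differed by -0.52, the meningeal list had a median of -0.86 and the vessel list one of -0.29. The part of meningeal or vascular cells in the Lepr values was not tested. Calcr, Cckar, Npy2r and Ghsr were nearest to the hypothalamic factors, Cckar at a distance of 0.045. Mc3r, Insr and Npy5r were nearest to the list of hypothalamic peptides, which had medians of -0.10 in PGM and -0.27 in PGF, and Mc4r and Npy1r to astrocyte markers, with medians of -0.16 and -0.12. These last lists were hard to separate, Npy1r lying 0.078 from the peptides and 0.077 from the astrocyte markers. Insr was not separated from the hypothalamic factors either. It lay 0.1365 from the peptides, 0.1367 from the factors and 0.1368 from the astrocyte markers.

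**Figure D4:**
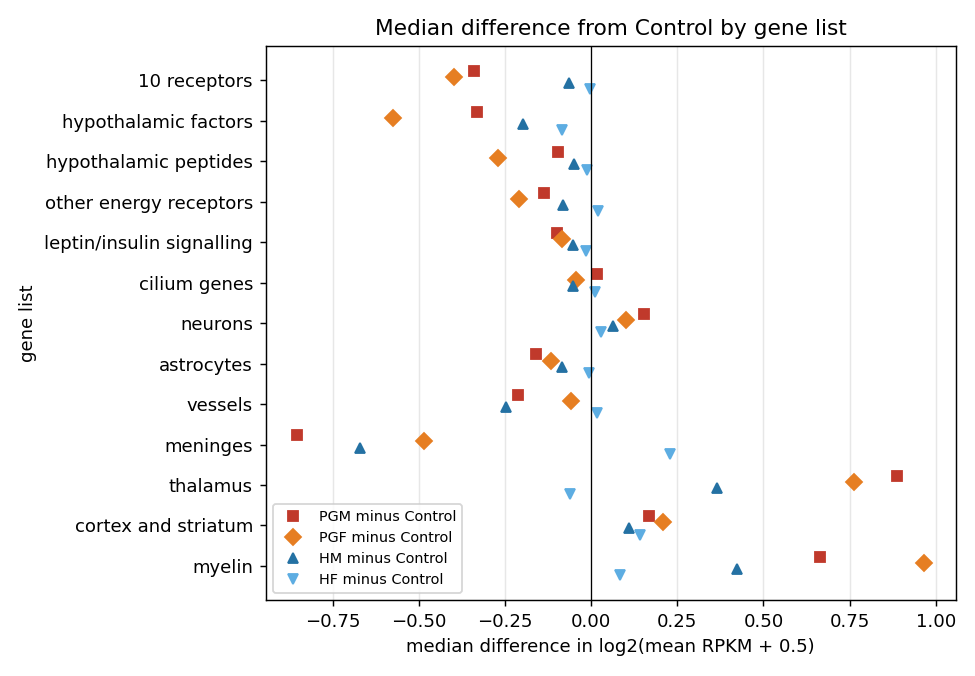
Median difference from Control in log2(mean RPKM + 0.5) (x axis) of the 10 receptors and of 12 gene lists (rows), 1 symbol per group; 1 pituitary, 1 choroid plexus, 1 erythroid, 1 ligand and 1 sex chromosome list are not drawn. The receptors lie beside the hypothalamic factors in PGM (-0.34 and -0.33) and above them in PGF (-0.40 and -0.58) and HM (-0.06 and -0.20), opposite to thalamus and myelin in PGM and PGF.

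Other receptors and receptor partners for energy signals differed less on the whole. Of 32 listed, 23 were kept. The median of these 23 genes was -0.14 in PGM and -0.21 in PGF, against 0.005 and -0.03 over all kept genes, with 19 and 17 of 23 below Control. On the log2(mean RPKM + 0.5) scale, none was at least 1.5-fold lower in either group. Of all kept genes 2.28% were in PGM and 1.88% in PGF. At such shares, 0 of 23 does not set the list apart. Galr3 came nearest, at -0.55 in PGM and -0.56 in PGF. In RPKM without the added 0.5, Galr3 was past 1.5-fold in both groups, and so were other genes of the list in PGM or in PGF. The Ramp genes, whose products join Calcr, did not follow it. Ramp3 was at 22.0 RPKM in Control, 66.1 in PGM, 65.4 in PGF, 23.1 in HF and 34.4 in HM, and was the 1 gene of the list at least 1.5-fold higher in PGM, PGF and HM (2.34%, 2.16% and 0.675% of kept genes). Like the summed thalamic markers, it was highest in PGM and PGF and intermediate in HM, and it is itself abundant in thalamus. The part of thalamic tissue in the Ramp3 values was not tested. Ramp1 was between 22.1 and 25.2 RPKM and Ramp2 between 28.0 and 34.0 in all groups. Galr3, a galanin receptor, was at 3.63 RPKM in Control, 2.32 in PGM, 2.30 in PGF, 4.10 in HF and 2.06 in HM. It was the 1 gene of the list at least 1.5-fold lower in HM, where 0.864% of all kept genes were. In HF none of the list was 1.5-fold higher, where 0.658% of kept genes were. The genes of the list with the highest levels were Ntrk2, the receptor for brain-derived neurotrophic factor, at 254.5 RPKM in Control and 231.5 in PGM, Adipor1, an adiponectin receptor, at 114.5 and 118.4, and the cannabinoid receptor gene Cnr1 at 81.2 and 68.6.

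Inside the cell, the genes that carry leptin and insulin signals lay within 1.5-fold of Control, with 1 exception of 26, where 2.28% of all kept genes were past it on the lower side in PGM and 1.88% in PGF. The 26 genes of this list had a median of -0.10 in PGM, -0.09 in PGF, -0.02 in HF and -0.05 in HM. Irs4, an insulin receptor substrate of the hypothalamus, was at 67.8 RPKM in Control, 34.8 in PGM, 32.5 in PGF, 61.8 in HF and 51.2 in HM, and was the 1 gene of the list past 1.5-fold in PGM and PGF, at -0.95 and -1.05. The other insulin receptor substrates differed less. Irs1 was at 27.7, 23.5, 23.1, 27.7 and 23.0 RPKM in Control, PGM, PGF, HF and HM, and Irs2 at 51.0, 49.3, 43.5, 48.3 and 47.8. Jak2 and Stat3, which carry the leptin signal, differed by -0.11 and -0.09 in PGM. The kinase gene Akt1 was at 110.5 RPKM in Control and 113.3 in PGM, and the phosphatase gene Ptpn11 at 91.3 and 88.8. Genes of the primary cilium, on which Mc4r acts in neurons, had medians of 0.02 in PGM and -0.04 in PGF over 17 genes, and none passed 1.5-fold. Among them Adcy3, the cyclase of neuronal cilia, was at 48.9 RPKM in Control, 40.2 in PGM and 38.7 in PGF, Tub at 98.2, 93.3 and 82.6, and Bbs4 at 57.1, 58.2 and 58.8.

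**Figure D5:**
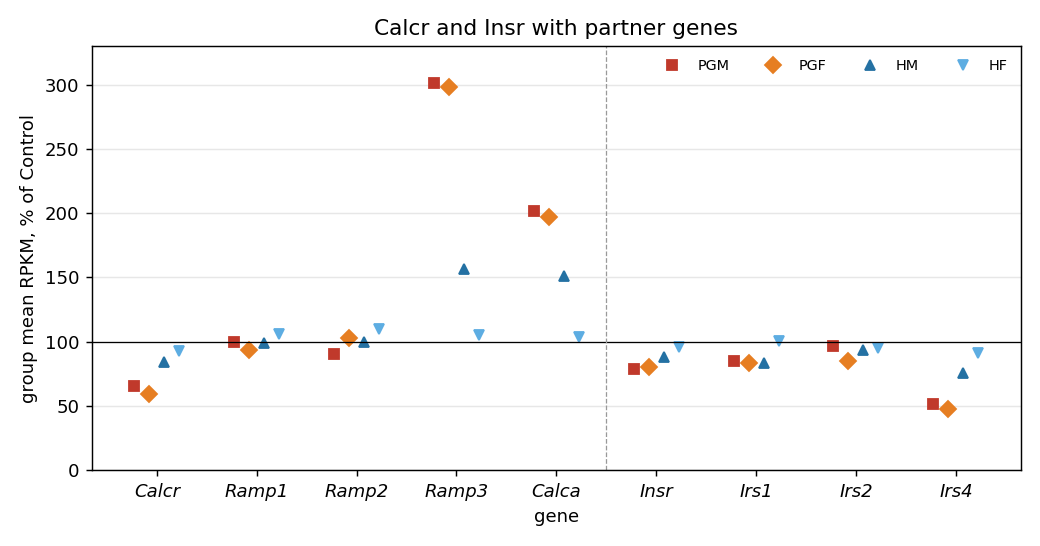
Group mean RPKM as a percentage of Control (y axis, from 0; the line marks 100%) for Calcr with the Ramp genes and Calca (left) and for Insr with 3 insulin receptor substrate genes (right), 1 symbol per group. Ramp3 and Calca lie above Control in PGM and PGF where Calcr lies below, and Irs4 lies lower than Insr, Irs1 and Irs2.

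The ligand genes of these receptors differed in both directions. Of 13 listed ligand genes 6 were kept, and Lep, Ins1, Ins2, Iapp and Pyy, made mainly outside the brain, were at no more than 0.30 RPKM in any group. Agrp was at 12.7 RPKM in Control, 6.58 in PGM, 4.64 in PGF, 16.2 in HF and 18.1 in HM, and Npy at 83.5, 69.5, 62.5, 103.0 and 100.5. Both peptide genes were thus lowest in PGM and PGF, as the receptors were, but unlike the median of the receptors they were higher in HM and HF than in Control. Cck, the ligand of Cckar, was at 114.4 RPKM in Control, 231.1 in PGM, 217.1 in PGF, 112.8 in HF and 144.2 in HM, so it was highest in PGM and PGF, where its receptor was lowest. Ghrl, which encodes ghrelin, the ligand of Ghsr, was at 2.72 RPKM in Control, 1.78 in PGM, 1.97 in PGF, 2.18 in HF and 1.93 in HM. It was below Control in all 4 groups, whereas Ghsr in HF and HM was near its Control level. Calca, which encodes calcitonin and a related peptide, was at 10.1, 20.4, 19.96, 10.5 and 15.3 RPKM. Cck is abundant in thalamus and cortex, and both genes were high in the groups with high thalamic markers. Pomc was at 24.3 RPKM in Control, 16.1 in PGM, 369.7 in PGF, 20.5 in HF and 22.4 in HM, and the high PGF value came with the high pituitary hormone levels of that group. The part of thalamic, cortical or pituitary tissue in the Cck, Calca and Pomc values was not tested.

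The genes whose 4 differences from Control lay nearest to the receptors' median profile were Sgcz, Tmem200a, 6330403K07Rik, DXBay18 and Tk1, at distances of 0.017 to 0.028 log2 units. Sgcz, a sarcoglycan gene, was at 4.97 RPKM in Control, 3.87 in PGM, 3.71 in PGF, 5.01 in HF and 4.67 in HM. In all, 43 kept genes outside the receptor lists lay within 0.05 of this profile, and 6371 lay within 0.23, the distance of the farthest receptor, Calcr. The nearest receptor, Mc3r, was itself 0.068 from it.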

How the data were processed

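FastQC served for read quality and Novoalign 2.08 for alignment to mm10, per the submitters' processing notes. The counting program and its handling of isoforms and strands were not given in the sources used here. The deposited table held RPKM that the authors had averaged over each group, per the file headers, in 5 columns rounded to 2 decimals, for 49404 transcripts. A second header line inside it (1 line) was removed. Groups came from the sample titles, and values per sample were not used, so no test, SD, interval or floor could be computed and depth is unknown.

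The median over transcripts stood for a gene, genes averaging 1 RPKM or more over the groups were kept (17481, 70.4%), and 8 comparisons were described with a pseudocount of 0.5 and a limit of 1.5-fold. The 10 receptors, the 18 gene lists and the comparisons were chosen with earlier results of these data known. Genes were named by rule: all receptors, members of the energy signal lists past 1.5-fold against Control or among the 3 highest of a list, the 2 largest of a marker list, and the 5 genes nearest to the receptors' median profile. Marker genes were printed only where a receptor result touched them, and Nkx2-1, Jak2, Stat3, Irs1, Irs2, Ramp1 and Ramp2 were added after their values were seen. One gene that the rule names is not reported here. Synonyms gave 3 of the listed names, and 3 had no match. Gene positions are those of GENCODE M21 on GRCm38, which is mm10, and promoters are from RefSeq. Alternatives were other pseudocounts, filters, scalings, transcript summaries, limits and HF as reference. The counting was tested on simulated data. Python 3.11.15, numpy 2.4.6, pandas 2.3.3 and matplotlib 3.10.9 were used.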

Additional observations from a re-analysis of the deposited data

How the results depend on the processing

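No paired analysis was possible because the table holds 1 mean per group and no value per sample, and for the same reason no replicate could be left out. Over the 10 receptors, 8 comparisons and 10 alternatives other than the limit, 692 of 750 differences kept their side of 0 (or moved across it by at most 0.1) and of 1.5-fold, and none past 1.5-fold changed sign. PGM and PGF were below their reference group for every receptor in 180 of 180 differences. These were counted over the settings other than centring on the hypothalamic transcription factors. Both counts include differences that could not change. Removing the filter, or raising it to a mean of 3 RPKM, left all receptor values as they were, 80 differences each. The transcript summaries could not alter Ghsr, Mc3r, Mc4r, Cckar and Npy2r, which have 1 transcript each. The number of receptors past 1.5-fold lower was less stable. With a pseudocount of 1 it was 0 for PGM against Control, 1 for PGF against Control and 1 for PGF against HF, and Lepr, Ghsr and Calcr in PGM were at -0.58, -0.56 and -0.58. For PGF against HF it was 0 after centring on all kept genes, 1 with the highest transcript and 1 with the mean over transcripts. With a pseudocount of 0.1 it rose to 3 for PGF against HF, where Cckar was at -0.60. It stayed at 3 for PGM and 2 for PGF against Control. At 2-fold it was 0 in all 8 comparisons. Among the alternatives, shares of all kept genes are given here only for the limit of 5 to 4. The counts under the other alternatives thus have no background beside them and do not set the receptors apart. With the limit lowered to a ratio of 5 to 4 it was 6 for PGM and 6 for PGF against Control, 1 for HM against HF, 4 for PGM against HM and 5 for PGF against HF, where 9.72%, 10.1%, 5.59%, 2.73% and 8.83% of kept genes were that much lower. Centred on the hypothalamic transcription factors it was 0 in all 8 comparisons, and the receptors' median changed sign to 0.18 for PGF, 0.14 for HM and 0.080 for HF against Control, -0.044 for PGM against PGF, 0.041 for HM against HF and 0.12 for PGF against HF. These changes follow from how that centring is built, since the list's own median, which was below 0 in these comparisons except PGM against PGF, at 0.12, is subtracted. With HF in place of Control as reference, Calcr in PGM was at -0.49 and Cckar in PGF at -0.56, both short of 1.5-fold, and Lepr in PGF was at -0.63, past it.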

Other observations

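Among receptors outside the 10, singled out after their values were seen, Glp1r, the receptor for glucagon-like peptide 1, had another order of groups. It was at 11.7 RPKM in Control, 11.1 in PGM, 10.7 in PGF, 8.91 in HF and 8.93 in HM, so HM and HF were its lowest groups, at differences of -0.37 and -0.38. The orexin receptor genes split in HM. Hcrtr1 was at 15.15 RPKM in Control, 12.25 in PGM, 11.4 in PGF, 15.4 in HF and 12.2 in HM, whereas Hcrtr2 was at 9.86, 7.92, 7.74, 9.75 and 9.91. Mrap2, whose product binds Mc4r and modulates its signalling, was at 26.6 RPKM in Control, 20.3 in PGM, 19.8 in PGF, 24.3 in HF and 23.9 in HM, a wider range than that of Mc4r itself. Htr2c, a serotonin receptor of proopiomelanocortin neurons, ran the other way, at 62.7 RPKM in Control, 75.6 in PGM, 70.5 in PGF, 66.5 in HF and 67.7 in HM. None of these 5 genes reached 1.5-fold in a comparison with Control.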
